A study of Mesocricetus auratus with 8 samples.

Results

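The genes described here are the splicing regulators and related RNA-binding proteins of Syrian hamster satellite cells (SCs), which reside on muscle fibres and supply new myoblasts. They were chosen by gene symbol alone, from 7 families: Srsf (11 genes), Hnrnp (20), Rbm with a number (31, leaving out Rbm3), Mbnl (3), Celf (6), Rbfox (3) and Ptbp (3). They make up 77 of the 17590 genes with values in the deposited table. The study asked how SCs of a hibernating mammal respond to cold, and RNA-seq libraries were made from polyA RNA of cultured cells in 2 groups of 4. Control libraries came from wild-type SCs kept at 37°C in growth medium. Cold libraries came from wild-type SCs held for 48 h at 37°C and for 24 h at 37°C in growth medium with 100 mM HEPES, which buffers the pH, and then for 24 h at 4°C. By the study's scheme RNA was taken before and after the cold step, which places the HEPES medium in the controls too. The cells were isolated from hindlimb muscle of sexually mature male hamsters of the Slc:Syrian stock and enriched by preplating, in which fibroblasts attach first and are left behind, so each culture may hold cells of more than 1 type.

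Control titles give day 3 of culture for all 4 libraries, while their treatment labels give 3, 4, 5 and 6 days at 37°C for replicates 1 to 4. Cold libraries were collected 24 h after the day given in the control titles, and no library kept at 37°C for that extra day was analysed here, so cold and time in culture cannot be told apart. The study calls its 4 libraries per group biological replicates. What a replicate number marks, and whether separate animals were used, is not given in the sources used here, so p-values measure only the spread between these libraries. Libraries held between 16530747 and 18533801 expected counts, and the first principal component (54.5% of the variance) set replicates 1 and 2 apart from replicates 3 and 4, with or without cold. Satellite cell and myoblast markers were present in every library, with Pax7 at 12.7 ± 2.17 TPM (a level scaled to gene length and library size) in the controls and 13.5 ± 1.70 TPM in cold libraries (mean ± SD, n = 4 each).

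Splicing joins the exons of a pre-mRNA, and which exons are kept depends on proteins that bind near them. SR proteins (Srsf genes) bind mainly within exons and help the spliceosome to use them, whereas hnRNPs coat nascent transcripts and often act against exon inclusion. Smaller families set tissue-specific patterns: RBFOX, MBNL and CELF proteins and RBM20, RBM24 and RBM38 act in muscle, and PTBP1 holds back many neuronal and muscle exons in cells that are not yet differentiated. The values below are gene-level, so they describe how much mRNA of each regulator was present, not which exons were used. In bulk libraries, fewer cells expressing a gene and less RNA per cell cannot be told apart.

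Splicing regulators were abundant and spanned a wide range of levels. On this TPM scale, the 70 members that passed the filter on low counts had a median control level of 74.5 TPM, against 16.1 TPM for all 12506 genes that passed. The hnRNPs alone summed to 8390 ± 188 TPM in the controls and 8846 ± 400 TPM in cold libraries (n = 4 each). SR proteins summed to 1662 ± 76.2 and 1714 ± 118 TPM, and the numbered Rbm genes to 1395 ± 47.7 and 1421 ± 81.9 TPM. Summed levels were 309 ± 13.0 and 322 ± 3.00 TPM for Ptbp, 129 ± 11.3 and 129 ± 4.48 TPM for Mbnl, 109 ± 5.12 and 112 ± 13.2 TPM for Celf, and 58.6 ± 7.96 and 54.7 ± 7.52 TPM for Rbfox. Together the 77 members took 1.66% to 1.85% of each library's expected counts. In 2 small families 1 paralog was far above the others. Ptbp1 stood at 241 ± 9.94 TPM in control libraries beside 57.3 ± 4.63 for Ptbp3 and 11.1 ± 2.01 for Ptbp2, and Rbfox2 at 56.1 ± 7.03 TPM beside 2.52 ± 0.970 for Rbfox1.

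**Figure D1:**
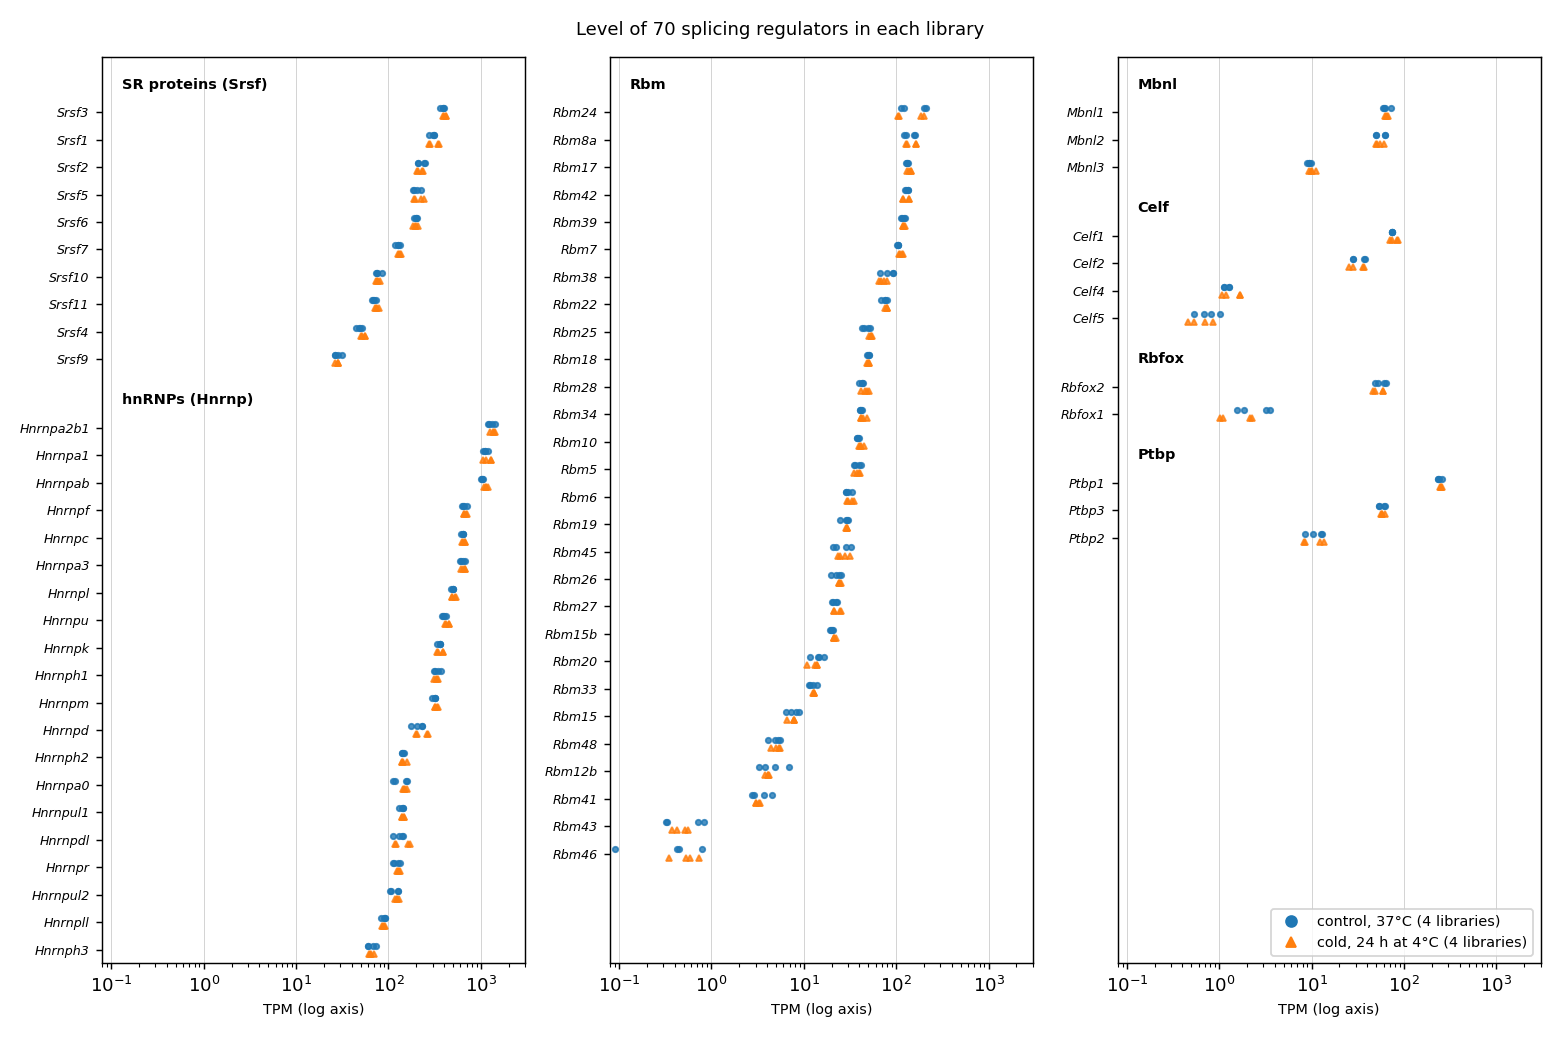
Level in TPM (log axis) of the 70 members that passed the filter, with 1 circle for each control library and 1 triangle for each cold library, ordered within each family by mean level. Levels run from under 1 TPM (Rbm46, Rbm43, Celf5) to the most abundant hnRNPs (Hnrnpa2b1, Hnrnpa1, Hnrnpab), and circles and triangles of most members overlap.

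The member with the highest level was Hnrnpa2b1, an hnRNP of the A/B group that also takes part in RNA transport, at 1189, 1219, 1311 and 1411 TPM in control replicates 1 to 4 and 1413, 1391, 1356 and 1264 TPM in the cold libraries of the same numbers. The cold value was higher than its control in pairs 1, 2 and 3 and lower in pair 4, and the groups overlapped. Srsf3, a small SR protein that also serves in mRNA export, led its family at 402, 391, 365 and 393 TPM in the controls and 416, 421, 385 and 399 TPM in cold libraries. Rbm24, which promotes inclusion of muscle exons, led the numbered Rbm genes, and its values are given with the other muscle regulators.

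After 24 h at 4°C, few of these genes changed and the changes were small. Each cold library was compared with the control library of the same number in an edgeR quasi-likelihood test, which gives a log2 fold change (cold minus control) with its standard error (SE), and a gene was called at a Benjamini-Hochberg adjusted p under 0.05 over all 12506 genes tested, with no minimum fold. By this rule 2 of the 70 members tested fell (Rbfox1 and Rbm38), against 4.07% of all genes, and 2 rose (Hnrnpab and Hnrnpu), against 1.26% of all genes. In both directions together this was 5.71% of the members, close to the 5.33% of all genes. The median level of all genes is lower than that of the members, and no share was taken over genes of similar level. With an unadjusted p under 0.05, 7 members were lower and 11 higher, beside 9.76% and 8.48% of all genes.

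These calls depended on having the replicate number in the model. A model with only the split between replicates 1 and 2 and replicates 3 and 4 was not fitted. Without the replicate number in the model, 0 of the 70 members were called by edgeR in either direction, as were only 0.072% of all genes. At an unadjusted p under 0.05 that model had 0 members lower (4.13% of all genes) and 3 higher (2.57% of all genes), namely Hnrnpab and, named because of this result, Rbm25 and Srsf4. DESeq2 with the replicate number called 2 members, Rbfox1 and Hnrnpab. When a log2 fold change of 1 or more was also required, 0 members were called in the paired edgeR fit, against 0.848% of all genes.

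In the paired edgeR fit, the size of the changes could be bounded closely for most members. For 59 of the 70 the 95% interval of the log2 fold change lay within 0.25 of 0, as it did for 61.1% of all genes. That band runs from 15.9% lower to 18.9% higher. These intervals hold only with the replicate number in the model, and none was taken from the fit without it. Of the 11 members whose interval reached further, 8 were low, with mean control levels between 0.438 and 4.96 TPM (Rbfox1, Rbm12b, Rbm41, Rbm43, Rbm46, Rbm48, Celf4 and Celf5), and the others were Rbm38, Rbm20 and Hnrnpa0. The median log2 fold change was 0.032 over the members and 0.0075 over all genes tested, and 46 of the 70 members had a value above 0, or 65.7%, against 53.1% of all genes. The median SE of a member was 0.041, compared with 0.062 for all genes. Non-overlap of the 4 control and 4 cold TPM values, which uses no model, was seen in 0 members that were lower (2.41% of all genes) and 3 that were higher (2.27% of all genes): Hnrnpab, Rbm7 and Rbm15b, the last 2 of which are named because of this result.

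**Figure D2:**
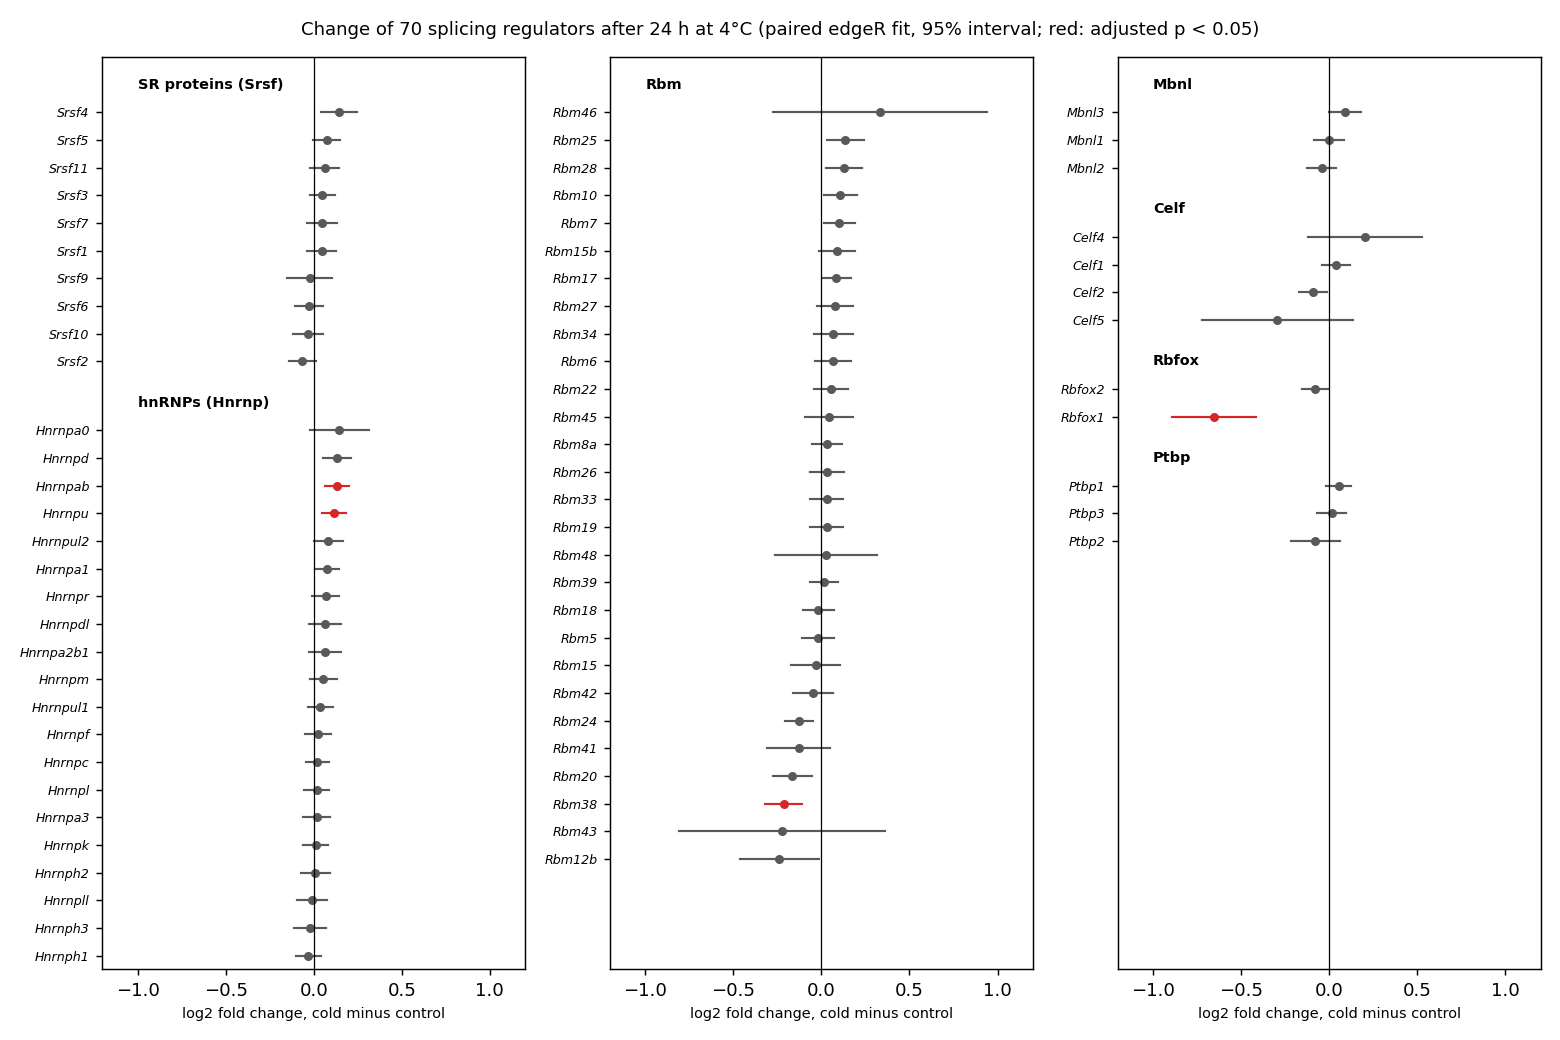
Log2 fold change (cold minus control) of the 70 members tested, by family, from the paired edgeR fit, with bars for the 95% interval and red for an adjusted p under 0.05. Most points lie within 0.25 of 0, Rbfox1 stands apart at −0.65, and wide intervals belong to genes of low level such as Rbm46 and Rbm43.

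Rbfox1 showed the largest called change of the 70 members. It encodes an RNA-binding Fox protein that controls exons in muscle, heart and neurons according to whether it binds before or after them. Its levels were 3.18, 3.51, 1.85 and 1.54 TPM in control replicates 1 to 4 and 2.29, 2.16, 1.10 and 1.03 TPM in the cold libraries of the same numbers, from between 78 and 185 counts per control library and between 52 and 119 per cold library. Each cold library was below its own control, but the groups overlapped, because cold replicates 1 and 2 remained above control replicates 3 and 4. Rbfox1 fell to 36.4% below its control level (log2 fold change −0.65, SE 0.11, 95% interval −0.89 to −0.42, adjusted p = 0.00087 in the paired edgeR fit). The adjusted p was 0.879 without the pairing, and the exact two-sided permutation test on TPM, which ignores the pairing, gave p = 0.200. Its paralog Rbfox2, at much higher levels, stood at 63.3, 60.7, 51.7 and 48.6 TPM in the controls and 59.4, 58.6, 48.2 and 46.2 TPM in cold libraries. The cold value of Rbfox2 was below its control in each of the 4 pairs, but the difference did not pass the test (log2 fold change −0.08, SE 0.04, adjusted p = 0.272). Rbfox3, the neuronal paralog known as NeuN, had at most 1 count in any library.

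Rbm38 was the other member that fell. Its protein binds the mRNA of the cell cycle inhibitor p21 and other transcripts and is linked to cell cycle exit of myoblasts. Control libraries held 91.1, 91.8, 79.5 and 67.1 TPM, and cold libraries 73.5, 78.7, 69.1 and 64.9 TPM. The cold value was lower in each pair, by little in pair 4, and the groups overlapped. The log2 fold change was −0.21 with an SE of 0.05 (adjusted p = 0.0157 in the paired edgeR fit and 0.879 without pairing, exact permutation p = 0.171 on TPM). This call depended on single pairs: the adjusted p was 0.107 without replicate 1, 0.113 without replicate 2 and 0.0504 without replicate 3. The log2 fold changes in those fits were −0.17, −0.20 and −0.22. Without replicate 4 Rbm38 was still called (−0.28, adjusted p = 0.00056 by edgeR). Rbfox1 remained called without any one of the 4 replicates (adjusted p at most 0.0200 in the same edgeR fit).

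Rbm20 and Rbm24, which shape the splicing of titin and of other sarcomere genes in striated muscle, were lower in the cold library of each pair but did not pass the test. Rbm24 stood at 207, 199.9, 112 and 122 TPM in the controls and 186, 198, 108 and 104 TPM in cold libraries (log2 fold change −0.13, SE 0.04, adjusted p = 0.0523 by edgeR). For Rbm20 the values were 16.4, 14.7, 14.2 and 11.6 TPM in the controls and 13.1, 13.8, 13.7 and 10.7 TPM in cold libraries (log2 fold change −0.17, SE 0.05, adjusted p = 0.0798 by edgeR). In both genes the groups overlapped. The members that were lower in all 4 pairs on the log2 CPM scale (counts scaled to normalized library size) numbered 6, or 8.57% of those tested, against 12.8% of all genes: Rbfox1, Rbfox2, Rbm20, Rbm24, Rbm38 and Celf2. All 6 belong to a list of 14 muscle regulators and their neuronal counterparts from the Mbnl, Celf, Rbfox, Ptbp and Rbm families, of which 13 were tested and 2 were higher in all 4 pairs (Mbnl3 and Ptbp1). The median log2 fold change of the 13 was −0.08. This list was chosen with earlier results of these data known, so the overlap is not a test of muscle regulators as a set. In pair 3 Celf2 was lower by only 0.007 in log2 CPM. Members higher in all 4 pairs numbered 18, or 25.7%, against 12.9% of all genes. They comprised 7 hnRNPs, 5 numbered Rbm genes, 4 SR proteins, Mbnl3 and Ptbp1. Of these, Hnrnpd came near the threshold (log2 fold change 0.13, SE 0.04, adjusted p = 0.0555 by edgeR) and is named because of this result. Hnrnpd was called with no filter, without replicate 4 and in replicates 1 and 2 alone.

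Markers of the muscle lineage also changed after cold. The study had already listed Myh3, Acta1, Tnnt1 and Mef2c among genes lowered by cold in these libraries, so their fall is no separate evidence. All 8 differentiating myocyte markers (Myog, Mymk, Ckm, Myh3, Acta1, Tnnt1, Actn2 and Mef2c) fell in the paired fit, with a median log2 fold change of −1.44, and their summed level ranged from 1386 to 2930 TPM in the controls and from 631 to 1248 TPM in cold libraries, although 0 of the 8 passed without the pairing. Myog, the transcription factor that starts terminal differentiation, stood at 1008, 1016, 449 and 479.8 TPM in the controls and 564, 628, 314 and 292 TPM in cold libraries. Of the 11 satellite cell and myoblast markers, 3 fell and 1 rose in the paired edgeR fit, and 0 passed without the pairing. Those that fell were Cdh15 (M-cadherin; log2 fold change −0.32), Itga7 (an integrin of muscle, −0.29) and Myod1 (a myogenic transcription factor, −0.13), and Met, the receptor of hepatocyte growth factor, rose (0.16). Their summed level ranged from 2279 to 2673 TPM in the controls and from 2180 to 2523 TPM in cold libraries. The part of these markers in the fall of Rbfox1 and Rbm38 was not tested. Among markers of other cells, fibroblast markers summed to between 998 and 1509 TPM in the controls and 984 and 1468 TPM in cold libraries, with 0 of 6 called. Smooth muscle and pericyte markers summed to between 1155 and 1981 TPM and 990 and 1288 TPM, with 1 of 4 called lower, Acta2, which made up nearly all of the sum. Endothelial markers summed to 4.14 TPM or less and Schwann and neural markers to 3.91 TPM or less in every library, and the only erythroid gene with values was at 0. Immune markers summed to between 26.0 and 54.3 TPM in the controls and 26.5 and 55.7 TPM in cold libraries, most of it Cd68. Csf1r was present in every library, at 2.31 to 4.55 TPM, and Ptprc was at 0.03 TPM or less.

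**Figure D3:**
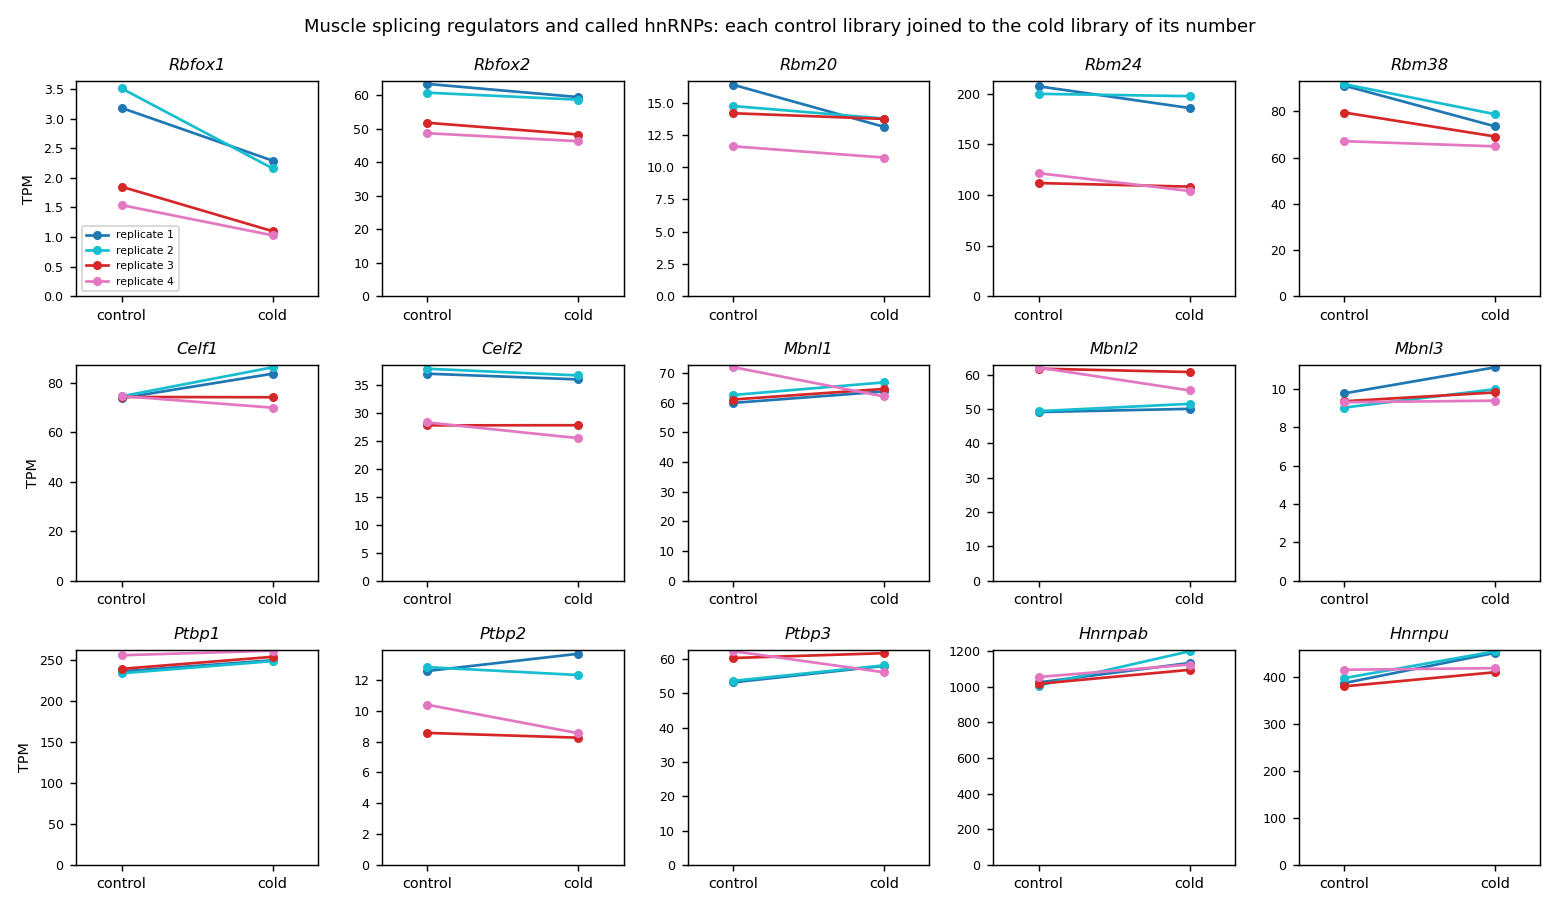
TPM of 15 members in control and cold libraries, with each control library joined to the cold library of its replicate number and each vertical axis starting at 0. Lines of Rbfox1, Rbfox2, Rbm20, Rbm24 and Rbm38 run downwards in all 4 pairs from starting levels that differ between replicates 1 and 2 and replicates 3 and 4, whereas Hnrnpab and Hnrnpu run slightly upwards.

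The difference between replicate pairs at 37°C was larger than the cold change for most members. In log2 CPM, control replicates 1 and 2 exceeded control replicates 3 and 4 by 1.08 for Rbfox1, 0.92 for Rbm24, 0.53 for Celf2, 0.42 for Rbm38, 0.38 for Rbm20 and 0.32 for Rbfox2. Other members also differed between these replicates. The difference was 0.53 for Hnrnpa0 and for Ptbp2, 0.36 for Hnrnpd and, in members named for this, 0.43 for Rbm8a and 0.35 for Srsf2. Replicates 3 and 4 were the higher ones for others, with differences of −1.10 for Rbm46, −0.58 for Rbm12b and, also named for this, −0.99 for Rbm43, −0.44 for Rbm41 and −0.40 for Rbm45. In the cold libraries the same difference was 1.05 for Rbfox1 and 0.87 for Rbm24, so it was kept for these genes after cold, and it was 0.22 for Rbm38 and 0.17 for Rbm20. Over all 70 members, the difference between these replicates at 37°C was larger than the fitted cold change in 52, or 74.3%, a share equal to that of all genes tested. For Hnrnpab and Hnrnpu it was smaller than the cold change, at 0.07 and 0.08.

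Both members that rose were hnRNPs. Hnrnpab, an abundant nuclear and cytoplasmic hnRNP, held 1023, 1005, 1015 and 1053 TPM in the controls and 1132, 1198, 1094 and 1123 TPM in cold libraries. All 4 cold libraries were above all 4 control libraries. It rose by 9.49% (log2 fold change 0.13, SE 0.03, adjusted p = 0.0220 in the paired edgeR fit, 0.643 without pairing), and the exact permutation test on TPM gave p = 0.0286, the smallest that 4 against 4 libraries allow. Hnrnpab is 1 of 3 members (with Hnrnpa3 and Hnrnpk) whose deposited counts have decimals in all 8 libraries, as arises where a counting program shares reads among features, and its change is uncertain to that extent. The adjusted p by edgeR was 0.0611 without replicate 1, 0.299 without replicate 2 and 0.0722 without replicate 3, with log2 fold changes of 0.14, 0.10 and 0.14. Without replicate 4 Hnrnpab was still called (0.13, adjusted p = 0.0154 by edgeR).

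Hnrnpu encodes a nuclear matrix protein, also called scaffold attachment factor A, that binds both chromatin and RNA. It was present at 386, 397, 379 and 415 TPM in the controls and 451, 454, 410 and 418 TPM in cold libraries. Each cold library was above its own control, while cold replicate 3 lay below control replicate 4. It rose by 8.40% (log2 fold change 0.12, SE 0.03, adjusted p = 0.0460 in the paired edgeR fit, 0.834 without pairing, exact permutation p = 0.0571 on TPM). Leaving out a replicate gave an adjusted p by edgeR of 0.311 for replicate 1, 0.320 for replicate 2 and 0.146 for replicate 3. The log2 fold changes in those fits were 0.09, 0.10 and 0.12. Without replicate 4 Hnrnpu was still called (0.14, adjusted p = 0.0092 by edgeR).

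Of the 20 hnRNPs, 17 had a log2 fold change above 0, and the family's values lay between −0.03 and 0.15 with a median of 0.046. The 10 SR proteins tested lay between −0.06 and 0.14 with the same median, and 0 of them was called by edgeR in either direction. Srsf3, with the values given above, had a log2 fold change of 0.05 (SE 0.03, adjusted p = 0.506). Among all members, the SE was lowest, at 0.03, for the abundant Hnrnpc. In the 28 numbered Rbm genes tested the range was from −0.24 to 0.33 with a median of 0.032, and Rbm38 was the only one called.

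The regulators that oppose each other in developing muscle showed no called change. MBNL proteins favour adult exons, and CELF1 favours fetal ones. Mbnl1 stood at 59.9, 62.6, 61.1 and 72.0 TPM in the controls and 63.8, 66.8, 64.7 and 62.1 TPM in cold libraries. Its log2 fold change was −0.0021 in the paired edgeR fit (SE 0.04, 95% interval −0.09 to 0.08). In that fit the interval leaves room for only a small change in either direction. Mbnl2 held 49.1, 49.4, 61.8 and 62.1 TPM in the controls and 50.1, 51.5, 60.8 and 55.4 TPM in cold libraries (log2 fold change −0.04, SE 0.04, adjusted p = 0.623 by edgeR). Mbnl3, the paralog of undifferentiated myoblasts, had the lowest level of the family, from 9.02 to 9.76 TPM in the controls and from 9.38 to 11.1 TPM in cold libraries, and its log2 fold change of 0.09 did not pass (adjusted p = 0.296 by edgeR).

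Celf1 was nearly the same in the 4 control libraries, at 73.8, 74.6, 74.3 and 74.7 TPM. The cold libraries were spread more widely, at 83.7, 86.3, 74.2 and 69.96 TPM, above control in pairs 1 and 2 and below it in pairs 3 and 4 (log2 fold change 0.04, SE 0.04, adjusted p = 0.652 by edgeR). Celf2 held 37.1, 38.0, 27.8 and 28.4 TPM in the controls and 36.1, 36.8, 27.9 and 25.5 TPM in cold libraries (log2 fold change −0.09, SE 0.04, adjusted p = 0.208 by edgeR). Celf4 and Celf5, best known from neurons, were detected at about 1 TPM, from between 21 and 75 counts per library, too few to bound a change closely (95% intervals −0.12 to 0.53 and −0.72 to 0.13).

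Ptbp1, the general splicing repressor of the family, was at 236, 233, 239 and 255 TPM in the controls and 249, 248, 253 and 261 TPM in cold libraries. It was higher in the cold library of each pair, with groups that overlapped, and the difference did not pass (log2 fold change 0.05, SE 0.03, adjusted p = 0.434 by edgeR). Ptbp2, its neuronal counterpart, held 12.6, 12.8, 8.57 and 10.4 TPM in the controls and 13.7, 12.3, 8.26 and 8.55 TPM in cold libraries. Ptbp3 held 53.2, 53.6, 60.3 and 62.3 TPM in the controls and 58.0, 58.1, 61.7 and 56.1 TPM in cold libraries. Neither had a called change (log2 fold changes −0.08 with an SE of 0.07 and 0.01 with an SE of 0.04).

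Beyond the called genes, the largest fitted differences belonged mostly to members of low level. The lowest log2 fold changes after that of Rbfox1 were those of Celf5 (−0.29, SE 0.20) and Rbm12b (−0.24, SE 0.11), and the highest were those of Rbm46 (0.33, SE 0.29), Celf4 (0.20, SE 0.15) and Hnrnpa0 (0.15, SE 0.08). None of these 5 passed the test (adjusted p between 0.243 and 0.601 by edgeR). Rbm46, a germline gene, was read from between 3 and 24 counts per library. Rbm12b stood at 3.31, 3.80, 4.87 and 6.95 TPM in control libraries and within a narrower range, 3.78, 4.17, 4.14 and 4.13 TPM, in cold libraries.

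Hnrnpa0, an hnRNP that binds AU-rich mRNA, differed from this group in that it was abundant. It stood at 154, 158, 112 and 118 TPM in control libraries and at 145, 146, 157 and 152 TPM in cold libraries. The cold value was lower in pairs 1 and 2 (by 0.12 and 0.16 in log2 CPM) and higher in pairs 3 and 4 (by 0.48 and 0.40), and the 4 cold libraries lay closer together than the controls. In fits restricted to replicates 1 and 2, its log2 fold change was −0.15 (adjusted p = 0.0282 by edgeR), and in replicates 3 and 4 it was 0.44 (adjusted p = 4.4e-12 by edgeR). Whether these differ was not tested.

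The pairs were unlike each other across the members as a whole. Of the 70 members, 46 were higher in the cold library of pair 1, 55 in pair 2, 39 in pair 3 and 32 in pair 4, or 65.7%, 78.6%, 55.7% and 45.7%, while the share over all genes tested stayed between 49.9% and 52.7%. The median difference in log2 CPM over the members was 0.056 in pairs 1 and 2, 0.022 in pair 3 and −0.017 in pair 4. Fitted alone, replicates 1 and 2 had 8 members called lower (9.43% of all genes) and 12 called higher (7.72% of all genes). Replicates 3 and 4 alone had 1 called lower, Rbm12b (2.29% of all genes), and 1 called higher, Hnrnpa0 (0.659% of all genes). With 2 pairs each, these fits lean on the spread shared across genes, and the difference between them was not tested.

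**Figure D4:**
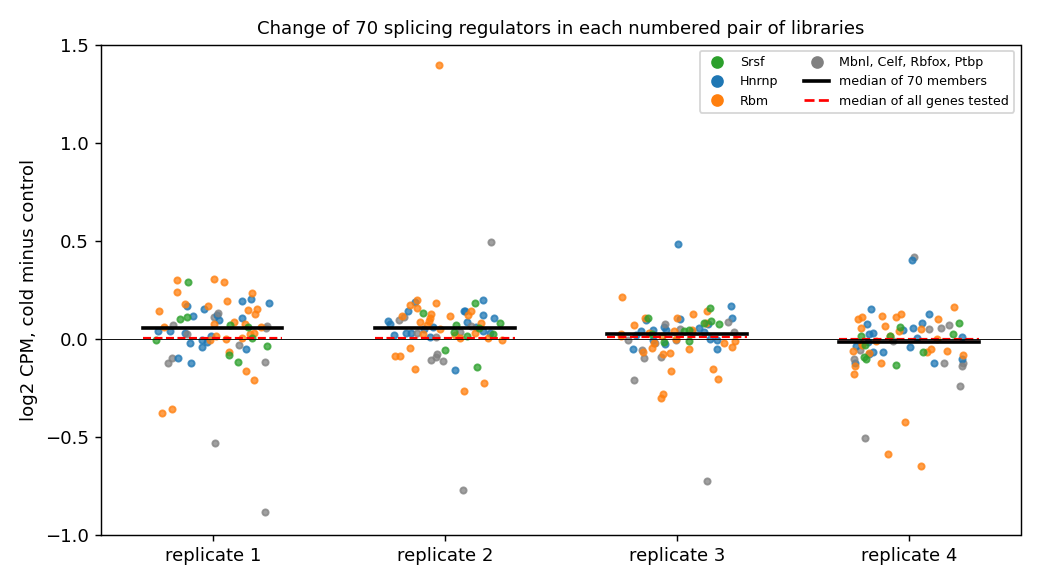
Difference in log2 CPM (cold minus control) of each of the 70 members in each numbered pair of libraries, coloured by family, with the median of the members (black line) and of all genes tested (red dashed line). The member median lies above 0 in pairs 1, 2 and 3 and just below it in pair 4, and the highest point, in pair 2, is Rbm46, a gene of few counts.

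The 7 members that were not tested had at most 5 counts in any library: Srsf12, Rbm11, Rbm44, Rbm47, Celf3, Celf6 and Rbfox3. Several of them are known mainly from neurons, testis or epithelia. Celf6 had 0 counts in all 8 libraries, which allows up to 3 counts in each as far as counting error goes. No fold is given for these genes.

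Other parts of the splicing machinery were described with lists of genes that hold no member, whose counts stand against 1.26% of all genes called higher and 4.07% called lower. Of 47 core spliceosome genes tested, 0 were called by edgeR in either direction. Their median log2 fold change was 0.058, with 39 of 47 above 0, beside 53.1% of all genes. Of 18 other SR and SR-like factors, 1 rose: Scaf4, which binds the tail of RNA polymerase II (log2 fold change 0.16, SE 0.04, adjusted p = 0.0445 by edgeR), and the median was 0.046. Of 13 genes of the exon junction complex and nonsense-mediated decay, 1 rose, Smg1, the kinase that phosphorylates UPF1 (log2 fold change 0.17, SE 0.05, adjusted p = 0.0292 by edgeR), and the median was 0.024. These lists had medians between 0.024 and 0.058, beside 0.032 over the members and 0.0075 over all genes tested. None of their calls was kept without the pairing.

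Of the 12 kinases and other regulators of SR proteins tested, 1 fell. It was Srpk3, the SR protein kinase of striated muscle, at 11.2, 11.98, 8.10 and 10.9 TPM in the controls and 6.16, 6.56, 6.11 and 7.56 TPM in cold libraries. All 4 cold libraries lay below all 4 control libraries (log2 fold change −0.69, SE 0.10, adjusted p = 0.00012 in the paired edgeR fit, 0.170 without pairing). It was lower in the cold by about as much as Rbfox1, while the list as a whole had a median of 0.042.

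Among 39 other splicing regulators and RNA-binding proteins tested, 0 fell and 4 rose, against 1.26% of all genes called higher, and 3 of the 4 are described here (Nono, Ncl and Zfp36). Nono, a protein of nuclear paraspeckles that also takes part in splicing, had a log2 fold change of 0.16 (SE 0.04), and Ncl (nucleolin) of 0.18 (SE 0.05). Each was higher in all 4 pairs in log2 CPM, but in TPM Ncl was lower in pair 4 (993 in the control, 980 in the cold library). Without the pairing the adjusted p by edgeR was 0.658 for Nono, 0.826 for Ncl and 0.751 for Zfp36. Zfp36 (tristetraprolin), which directs the decay of AU-rich mRNAs, stood at 9.52, 9.86, 9.13 and 10.3 TPM in the controls and 15.1, 23.4, 10.3 and 9.84 TPM in cold libraries, with the largest differences in pairs 1 and 2 and a lower cold value in pair 4 (log2 fold change 0.54, SE 0.14, adjusted p = 0.0256 by edgeR). Zfp36 was named after its values were seen. The median of this list was 0.034. Rbm3, the cold-inducible family member left out by the choice of symbols, stood at 582 ± 113 TPM in the controls and 610 ± 83.7 TPM in cold libraries (log2 fold change 0.06, adjusted p = 0.453 by edgeR).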

How the data were processed

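The authors sequenced polyA libraries as paired-end reads, and the submitters' processing notes name HISAT and HISAT2. The counting program, genome build and annotation are not given in the sources used here. The deposited table, made by the authors, gives for each gene and library an expected count (not normalized, between 96.4% and 96.6% of them whole), a TPM value that the authors computed per library, and a normalized count, a signal that the authors scaled with 1 factor per library (0.924 to 1.02) and that was not tested here. All 77 members were found by symbol in a RefSeq annotation (BCM_Maur_2.0), used for names only.

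Cold and control libraries were compared in edgeR 4.0.16 (R 4.3.3) on rounded expected counts, with filterByExpr, TMM factors, a quasi-likelihood fit and the replicate number as a block, and p-values were adjusted over 12506 genes. The SE was taken from the log2 fold change and its F statistic. Deviations from the group means of same-numbered control and cold libraries correlated at 0.61, 0.62, 0.65 and 0.66 across genes. Different numbers within replicates 1 and 2 or within 3 and 4 reached 0.43 to 0.59, and those across them −0.55 to −0.61, so much of the shared deviation is that split. The numbers, which stand in the titles, were taken to pair the libraries. TPM of single members was compared with an exact permutation test (two-sided, 70 arrangements). The script was tested on simulated data.

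Depth was 16530747 to 18533801 expected counts per library. Intervals of fold changes come from the paired fit, so they cover the spread between libraries left after differences between replicate numbers are removed. The 3-count limit covers counting error only. Named members were those called, the muscle regulators and neuronal counterparts of the Mbnl, Celf, Rbfox, Ptbp and Rbm families, the highest Srsf, Hnrnp and Rbm member, and the 3 largest fold changes in each direction. Members, gene lists and tests were chosen with earlier results of these data known. Alternatives were the fit without the block, RLE factors, library totals, DESeq2 1.42.0, limma 3.58.1 on log2(TPM + 0.1) and log2(TPM + 1), no filter, a mean of at least 10 counts in each group, leaving out each replicate, replicates 1 and 2 or 3 and 4 alone, and the study's fold threshold. The result for 1 gene of these lists is not reported here.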

Additional observations from a re-analysis of the deposited data

Results flagged for a closer look

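Among the 44 groups of 4 library values examined for a value far from the others, 1 was picked out, where chance would pick out about 2.2. Rbm12b in cold replicate 1 was at 3.78 TPM, while replicates 2 to 4 after cold ranged from 4.13 to 4.17 TPM, so that the gap took 0.897 of the range of the group. The 4 cold values together span less than the 4 control values of this gene.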

How the results depend on the processing

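The paired fit called 2 members lower and 2 higher. Without the replicate block the counts were 0 and 0, and 0 and 0 with the study's fold threshold. The counts lower and higher were 3 and 1 with RLE factors, 1 and 1 with DESeq2, 0 and 0 with limma on log2(TPM + 0.1), 1 and 0 with limma on log2(TPM + 1), and 4 and 3 of 76 members with no filter. Leaving out a replicate gave between 1 and 3 members lower and between 0 and 5 higher, the most without replicate 4. Replicates 1 and 2 alone gave 8 and 12, and replicates 3 and 4 alone gave 1 and 1, with a median log2 fold change of −0.011 over the members. A library was left out together with its partner, since alone it adds nothing to a paired fit. These fits have fewer samples, and the cause of the other shifts was not tested. Library totals and the stricter filter changed neither count.

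Rbfox1 was below 0 in all 14 alternatives that refit it and called in 11 of them, the others being no block (adjusted p = 0.879), limma on log2(TPM + 0.1) (0.0728) and replicates 3 and 4 alone (0.0512). Rbm38, Hnrnpab and Hnrnpu kept their direction in all 14 and were called in 6, 7 and 5 of them. Rbm24 was also called with RLE factors (edgeR adjusted p = 0.0473), with no filter (0.0224) and in replicates 1 and 2 alone (0.0012), and Rbm20 with no filter (0.0208), without replicate 4 (0.0361) and in replicates 1 and 2 alone (1.2e-05). Among the 22 members followed one by one, the direction changed for 6. Mbnl1 was at 0.0016 with library totals, 0.013 with both limma fits, between −0.027 and 0.044 with a replicate left out and at 0.036 for replicates 1 and 2 alone. Ptbp3 was between −0.010 and 0.054 with a replicate left out and at −0.041 for replicates 3 and 4 alone. In that last fit Celf1 was at −0.037 and Hnrnpa2b1 at −0.046. For replicates 1 and 2 alone Hnrnpa0 was at −0.15 and Rbm12b at 0.030.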
